A study of Mus musculus with 31 samples.

Results

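The hypoxia-inducible factor genes and a set of their non-glycolytic targets were examined in Ly6C-high monocytes of mice with and without a tumor. The set holds 10 genes, chosen by symbol out of the 24411 entries of the count table: the alpha subunit genes Hif1a and Epas1, the oxygen-sensing hydroxylase genes Egln1 and Egln3, and the target genes Vegfa, Adm, Bnip3, Ndrg1, P4ha1 and Ankrd37. All 10 were found, and all 10 passed the filter on low counts, Adm only through its tumor libraries. RNA-seq libraries of C57BL/6J mice, 9 in all, were analysed, 3 in each of 3 groups that differ in tumor status and tissue. Healthy blood is blood of mice without a tumor, LLC blood is blood of mice bearing a subcutaneous Lewis lung carcinoma (LLC, a transplantable mouse carcinoma line), and LLC tumor is the tumor tissue itself. Per the labels, all cells were gated as CD11b+ Ly6G- Ly6Chi MHC-II-, a surface phenotype of classical inflammatory monocytes. Ages, and whether blood and tumor came from the same mice or each library from a separate mouse, are not given in the sources used here, so p-values measure only the spread between these libraries.

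Hypoxia-inducible factors are transcription factors made of an oxygen-regulated alpha subunit and the constant partner ARNT. When oxygen is available, prolyl hydroxylases encoded by the Egln genes modify the alpha subunit, the VHL ubiquitin ligase recognises the modified protein, and it is degraded. When oxygen is scarce the alpha subunit persists and genes for blood vessel growth, glycolysis, mitochondrial turnover and collagen processing are transcribed, and in myeloid cells inflammatory signals can also raise Hif1a mRNA. The counts here are of mRNA and hold no measure of oxygen, HIF protein or hydroxylation.

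Total counts were 10457478 to 20706410 per library. Levels are given as CPM, counts scaled to a fixed library total. Library pairs correlated across genes (log2 CPM, a description since genes are no replicates) at 0.967 to 0.997 within groups and 0.803 to 0.978 between them. For the sorted cells 7 monocyte markers (Itgam, Ly6c2, Ccr2, Csf1r, Chil3, F13a1 and S100a4) were detected in every group and summed to 12184 to 13219 CPM in healthy blood, between 12397 and 12781 CPM in LLC blood, and 8699 to 10502 CPM inside tumors. In LLC tumor against LLC blood 1 of the 7 was called higher and 4 lower: Itgam, which encodes the gated CD11b, rose from 1439 ± 88.7 to 3405 ± 278 CPM (edgeR adjusted p 2.91e-05), and Ly6c2, a gene of the gated Ly6C antigen, fell from 1153 ± 74.3 to 358 ± 103 CPM (adjusted p 0.000675). The library LLC blood 1 stood apart from LLC blood 2 and 3: its 6 fibroblast markers summed to 409 CPM against 1.38 and 1.93 CPM. Its 12 dissociation stress genes, early-response genes that tissue handling can raise, summed to 3897 CPM against 1296 and 1129 CPM. In healthy blood 1 to 3 the same 12 genes summed to 6252, 4112 and 3963 CPM. For these genes LLC blood 1 was thus near the healthy level, and LLC blood 2 and 3 were below it. In these bulk libraries fewer cells of a type and less RNA per cell cannot be told apart.

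How monocytes inside the tumor differ from those circulating in tumor-bearing mice is the question of the comparison between LLC tumor and LLC blood. Of the 10 genes, 9 rose in LLC tumor and none fell, at a Benjamini-Hochberg adjusted p under 0.05 in edgeR's quasi-likelihood test over 12337 genes, while 61.3% of all tested genes were called, 29.6% higher and 31.7% lower. Epas1 was the gene not called. Leaving aside Adm, which passed the filter only through its tumor libraries, 8 of 9 rose and 0 fell. The log2 fold changes of the 9 called genes lay between 2.07 (Egln1, 4.20-fold) and 9.36 (Vegfa, 655-fold). The median of the 10 was 3.47, against -0.03 over all tested genes, and 2.72 for the 9 genes other than Adm. For the same 9 called genes every tumor library lay above every LLC blood library, as did 23.5% of all tested genes, with 44.8% apart in the downward direction.

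**Figure D1:**
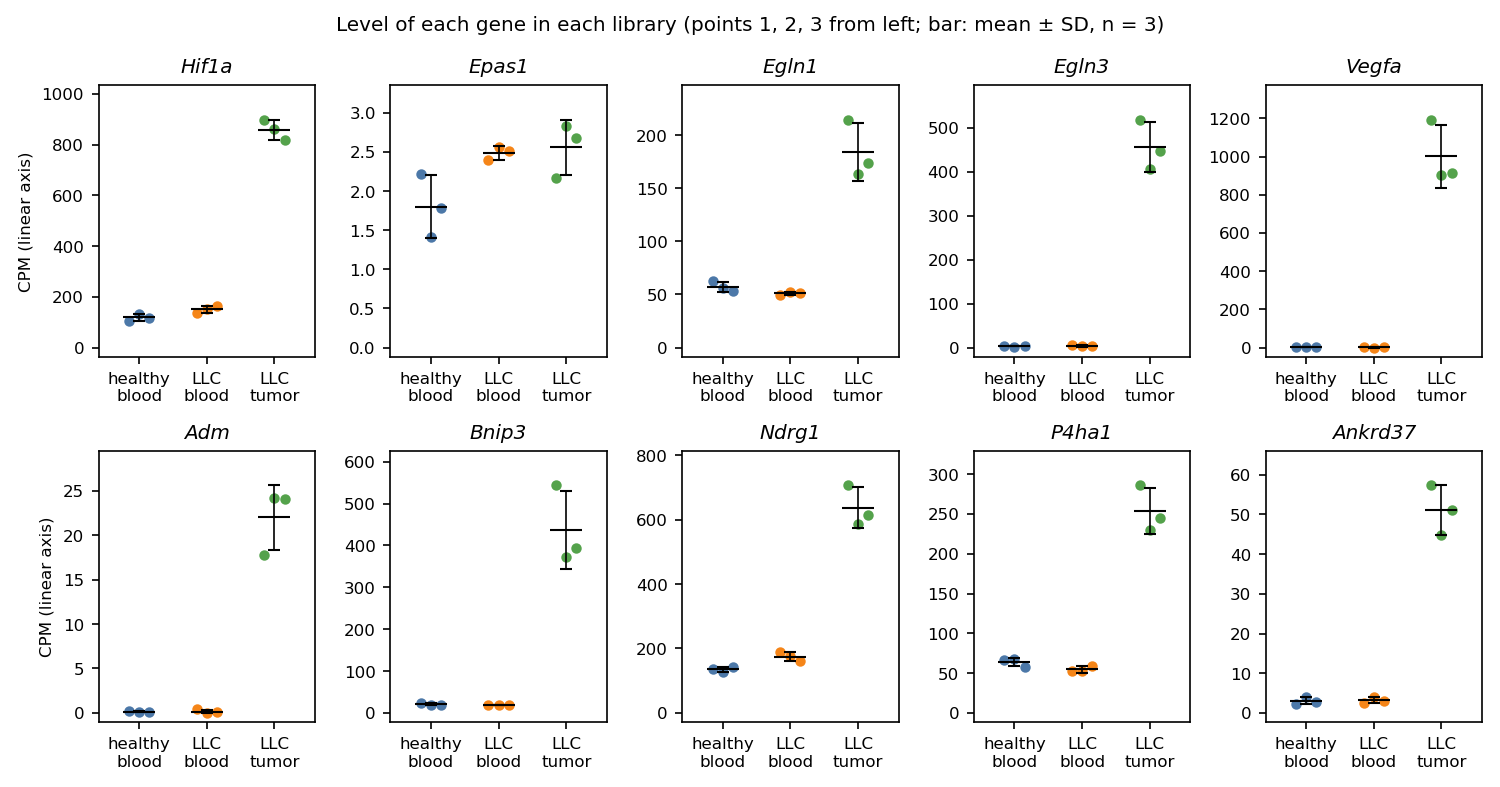
Level of each of the 10 genes in CPM (linear axis, a separate scale for each gene) in the 3 libraries of each group; points are libraries 1, 2 and 3 from left to right and bars are the mean ± SD. In 9 panels the 3 tumor libraries sit apart above all 6 blood libraries, and in the panel of Epas1 the tumor libraries (2.17 to 2.84 CPM) overlap those of LLC blood (2.39 to 2.56 CPM).

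Promoter sequences are shown for the 5 genes with the largest tumor changes, because these genes moved together and the HIF recognition core, ACGTG or GCGTG, can be searched for in them. Each is the 250 bases before a transcription start in RefSeq (build GRCm38.p6), read 5′ to 3′ on the gene's strand, with every match on either strand in capitals, so that CACGT and CACGC mark matches on the opposite strand.
Vegfa, chr17:46032378-46032627, minus strand: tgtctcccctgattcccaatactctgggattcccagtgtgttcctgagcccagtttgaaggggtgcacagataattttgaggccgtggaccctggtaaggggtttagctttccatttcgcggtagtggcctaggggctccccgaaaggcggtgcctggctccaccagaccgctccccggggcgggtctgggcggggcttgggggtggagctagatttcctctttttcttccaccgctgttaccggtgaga
Adm, chr7:110627407-110627656, plus strand: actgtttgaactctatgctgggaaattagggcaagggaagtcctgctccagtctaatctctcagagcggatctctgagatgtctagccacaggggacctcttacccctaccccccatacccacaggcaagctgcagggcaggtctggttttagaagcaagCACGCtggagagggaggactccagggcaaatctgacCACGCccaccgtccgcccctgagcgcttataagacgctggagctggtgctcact
Egln3, chr12:54203875-54204124, minus strand: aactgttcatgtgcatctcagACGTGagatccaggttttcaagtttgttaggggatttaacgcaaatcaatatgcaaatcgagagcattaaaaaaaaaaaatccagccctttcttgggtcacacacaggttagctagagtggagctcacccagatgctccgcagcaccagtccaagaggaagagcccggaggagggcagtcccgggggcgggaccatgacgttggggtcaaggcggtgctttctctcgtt
Bnip3, chr7:138909507-138909756, minus strand: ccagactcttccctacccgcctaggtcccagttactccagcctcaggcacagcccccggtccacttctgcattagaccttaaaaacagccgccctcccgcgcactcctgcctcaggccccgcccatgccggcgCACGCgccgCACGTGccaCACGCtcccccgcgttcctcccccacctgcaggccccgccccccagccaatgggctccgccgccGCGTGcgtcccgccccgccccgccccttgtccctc
Ankrd37, chr8:45999851-46000100, minus strand: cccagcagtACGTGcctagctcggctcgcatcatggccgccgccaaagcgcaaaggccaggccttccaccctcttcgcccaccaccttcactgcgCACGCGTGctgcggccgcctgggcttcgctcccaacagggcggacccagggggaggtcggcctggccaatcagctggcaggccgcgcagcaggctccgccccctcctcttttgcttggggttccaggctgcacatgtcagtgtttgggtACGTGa

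No match stands in the Vegfa window shown, while the window of its other listed start held 1 ACGTG and 1 GCGTG. The Adm window holds 2 matches to GCGTG, both on the opposite strand and beginning 90 and 54 bases before the start. A single ACGTG stands in the Egln3 window, beginning 229 bases before the start. The Bnip3 window is the densest with 5 matches, 4 of them beginning 117 to 99 bases before the start, and 2 of these 4 are one palindrome read on both strands. The Ankrd37 window, which lies inside the annotated span of the gene, has 4 matches, 1 of which begins 6 bases before the start. Windows were found for 8 of the 10 genes (9 windows, not for Epas1 and Ndrg1), and 8 of the 9 hold ACGTG or GCGTG, against 38.6% of 32851 windows of the same length. ACGTG alone is in 7 of the 9 windows and in 16.6% of all, and GCGTG alone in 6 of the 9 and in 28.2% of all. A match is a run of letters and not a shown binding site, and a window without one says only that these letters are not in it.

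Hif1a (ENSMUSG00000021109, chr12:73901324-73947554 in GRCm38.p6) encodes HIF-1 alpha, the alpha subunit best known in myeloid cells. It stood at 105, 135 and 118 CPM in healthy blood 1 to 3, at 137, 153 and 163 CPM in LLC blood, and at 897, 863 and 819 CPM in LLC tumor. The 3 groups did not overlap, and the tumor libraries lay closest together relative to their level. Hif1a rose from 151 ± 13.05 CPM (SD, n = 3) in LLC blood to 859.5 ± 39.2 CPM inside the tumor, 2.72 ± 0.15 (SE) on the log2 scale or 6.58-fold (adjusted p 6.46e-07). Epas1 (ENSMUSG00000024140, chr17:86753864-86833410) encodes HIF-2 alpha, the other main alpha subunit. Its level was 2.22, 1.41 and 1.78 CPM in healthy blood, 2.39, 2.56 and 2.51 CPM in LLC blood and 2.17, 2.84 and 2.68 CPM in LLC tumor, from 23 to 52 counts per library. Tumor and LLC blood overlapped, with a log2 fold change of 0.23 ± 0.25 (adjusted p 0.437), so a difference was not detectable at this depth. The share of Epas1 in the summed counts of Hif1a and Epas1, which does not correct for transcript length, was 1.53% ± 0.512 in healthy blood, 1.62% ± 0.0993 in LLC blood and 0.298% ± 0.0496 in LLC tumor (SD, n = 3), and the tumor libraries were below all blood libraries.

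Egln1 and Egln3 encode the prolyl hydroxylases PHD2 and PHD3, which mark HIF alpha subunits for degradation and are themselves transcribed by HIF, a negative feedback. Egln1 (ENSMUSG00000031987, chr8:124908587-124949254) was at 62.3, 55.9 and 52.8 CPM in healthy blood, 49.5, 51.9 and 51.6 CPM in LLC blood and 214, 163.0 and 174 CPM in LLC tumor. Its tumor libraries were all above the blood libraries, and the fold change was the smallest among the called genes, 2.07 ± 0.17 on the log2 scale (adjusted p 8.02e-06). Egln3 (ENSMUSG00000035105, chr12:54178981-54203874) went from near the bottom of the measured range to a high level: it was at 3.79, 2.58 and 3.49 CPM in healthy blood, 5.55, 3.04 and 2.75 CPM in LLC blood, and 519, 406 and 447 CPM in LLC tumor. The blood groups overlapped and the tumor stood apart, with a log2 fold change of 7.20 ± 0.30, 147-fold (adjusted p 2.09e-07), place 223 from the top of 12337 genes. Egln2, the family member that HIF is not known to raise, fell from 49.7 ± 3.38 to 32.7 ± 2.24 CPM (log2 fold change -0.40 ± 0.08, adjusted p 0.00233). The 3 Egln genes thus moved apart in the tumor. Egln3 held 2.80% ± 0.507 of their summed counts in healthy blood, 3.60% ± 1.39 in LLC blood and 67.9% ± 0.361 in LLC tumor.

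Vegfa and Adm encode secreted factors that act on blood vessels: vascular endothelial growth factor A, which drives vessel sprouting and permeability, and adrenomedullin, a vasodilator peptide. Vegfa (ENSMUSG00000023951, chr17:46016993-46032377) was at 2.79, 1.78 and 2.15 CPM in healthy blood, 4.78, 0.484 and 0.918 CPM in LLC blood, and 1193, 904 and 911 CPM in LLC tumor, or 7 to 50 counts in a blood library against 10196 to 13210 in a tumor library. Among the blood libraries LLC blood 1 was the highest and LLC blood 2 the lowest, and every tumor library was far above both. The log2 fold change from LLC blood to LLC tumor was 9.36 ± 0.61 (adjusted p 1.97e-06), place 38 from the top of 12337 genes, and it was 10.61 without LLC blood 1, the library with fibroblast markers. Adm (ENSMUSG00000030790, chr7:110627657-110629820) had 3, 1 and 2 counts in healthy blood, 4, 0 and 1 in LLC blood, against 197, 273 and 278 counts in LLC tumor, or 17.8, 24.2 and 24.02 CPM in the tumor. The 0 in LLC blood 2 allows a level of up to 0.208 CPM, taking 3 counts as the limit for counting error. The pooled reads of LLC tumor and LLC blood, 748 against 5, gave a ratio of 201 per library total (95% counting interval 85.8 to 621). The edgeR log2 fold change was 7.68 ± 0.53, 9.37 without LLC blood 1 and 7.10 without LLC blood 2. Adm was tested only because its tumor libraries passed the filter, so no adjusted p is given for it.

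Bnip3, Ndrg1, P4ha1 and Ankrd37 encode proteins that act inside the cell. Bnip3 (ENSMUSG00000078566, chr7:138890836-138909506), a mitochondrial outer membrane protein that promotes the removal of mitochondria, was at 24.4, 19.4 and 19.99 CPM in healthy blood, 18.7, 18.5 and 19.0 CPM in LLC blood and 544.5, 373 and 394 CPM in LLC tumor. Tumor 1 stood above tumor 2 and 3, all 3 were above the blood, and the log2 fold change was 4.77 ± 0.24, 27.4-fold (adjusted p 4.88e-07). Bnip3l (Nix), the paralog that also removes mitochondria, was at 233 ± 4.00 CPM in LLC blood and 229 ± 15.3 CPM in LLC tumor (log2 fold change 0.19 ± 0.12, adjusted p 0.196). The share of Bnip3 in the summed counts of the pair was 8.02% ± 0.927, 7.44% ± 0.122 and 65.3% ± 3.11, in the order healthy blood, LLC blood, LLC tumor.

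Ndrg1 (ENSMUSG00000005125, chr15:66929318-66969641), a stress-responsive cytoplasmic protein, was at 136, 126 and 143 CPM in healthy blood, 188, 175 and 160.0 CPM in LLC blood and 708, 586 and 615 CPM in LLC tumor. The 3 groups did not overlap, and the log2 fold change from LLC blood to tumor was 2.09 ± 0.15 (adjusted p 3.88e-06). Its relatives differed in direction: Ndrg3 fell from 43.6 ± 2.46 to 24.1 ± 4.54 CPM (log2 fold change -0.67 ± 0.09, adjusted p 0.000147). Ndrg2, which passed the filter only through the tumor libraries, was at 0.361 ± 0.182 CPM in LLC blood and 2.14 ± 0.849 CPM in LLC tumor. P4ha1 (ENSMUSG00000019916, chr10:59323197-59373304), the catalytic subunit of collagen prolyl 4-hydroxylase, was at 66.0, 67.5 and 58.1 CPM in healthy blood, 52.4, 52.1 and 59.2 CPM in LLC blood and 286, 229.9 and 245 CPM in LLC tumor. Blood groups overlapped and tumor stood apart, at a log2 fold change of 2.44 ± 0.16 (adjusted p 2.21e-06). P4hb, the beta subunit of the same enzyme, rose 1.25 ± 0.13 on the log2 scale (adjusted p 3.82e-05), and P4ha2, an alternative catalytic subunit which passed the filter only through the tumor libraries, had 1 to 4 counts in an LLC blood library and 88 to 161 in a tumor library. Ankrd37 (ENSMUSG00000050914, chr8:45996908-46000414), an ankyrin repeat protein known as a HIF-1 target, was at 2.29, 4.05 and 2.76 CPM in healthy blood, 2.49, 3.94 and 2.99 CPM in LLC blood and 57.4, 44.8 and 51.2 CPM in LLC tumor. It overlapped between the blood groups and rose 4.23 ± 0.26 on the log2 scale in the tumor, 18.7-fold (adjusted p 1.29e-06).

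**Figure D2:**
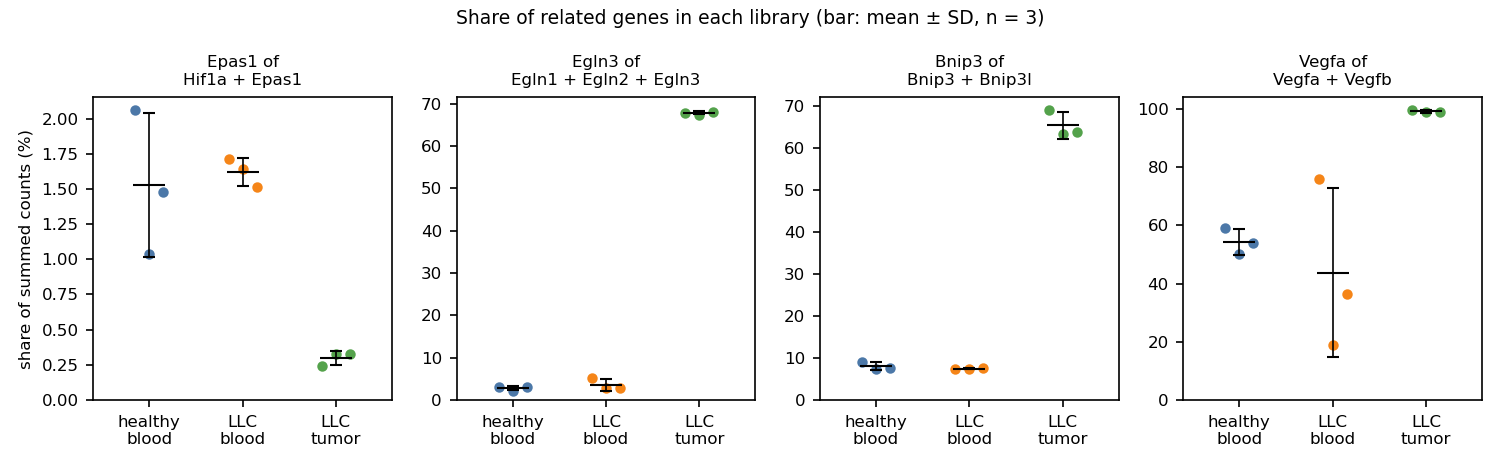
Share of 1 gene in the summed counts of its closest relatives (percent, an axis from 0 for each panel) in the 3 libraries of each group, with mean ± SD. The tumor libraries lie apart from all blood libraries in the 4 panels: lower for Epas1 (0.298% on average) and higher for Egln3 (67.9%), Bnip3 (65.3%) and Vegfa (99.1%).

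The 4 shares of related genes were compared by an exact two-sided permutation test, 3 libraries against 3, which cannot give a p below 0.1. All 8 comparisons with LLC tumor reached that smallest p of 0.1 (0.15 adjusted over 12 tests). Between LLC blood and healthy blood the 4 shares gave exact permutation p-values of 0.4 to 0.7. The share of Vegfa in Vegfa plus Vegfb was 75.8%, 18.9% and 36.5% in LLC blood 1 to 3 and 98.8% to 99.7% in LLC tumor. Vegfb, the relative less tied to vessel sprouting, itself rose from 1.73 ± 0.298 to 8.44 ± 4.03 CPM (adjusted p 0.000190) and was 2.84 times as high in tumor 2 and 3 as in tumor 1, and Vegfc was at 1.80 ± 0.272 and 2.46 ± 1.40 CPM (adjusted p 0.295).

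Between LLC tumor and healthy blood, which brackets both steps, all 10 genes were called higher (66.5% of tested genes were called, 33.5% higher and 33.0% lower), and 9 stood apart in every library (26.9% of tested genes did so upward and 43.7% downward). The median log2 fold change was 3.64, against -0.00 for all tested genes. These counts and this median include Adm, which was tested only through its tumor libraries. The LLC tumor libraries are the same in both tumor comparisons, so the values are given side by side and not as separate evidence. Hif1a was 3.03 ± 0.15 higher on the log2 scale than in healthy blood and 2.72 higher than in LLC blood, Ndrg1 2.43 ± 0.16 and 2.09, and P4ha1 2.18 ± 0.16 and 2.44. Vegfa was 9.01 ± 0.60 above healthy blood, Egln3 7.32 ± 0.30, Bnip3 4.57 ± 0.24, Ankrd37 4.25 ± 0.26 and Egln1 1.89 ± 0.17. The pooled Adm reads, 748 in tumor and 6 in healthy blood, gave a ratio of 171 (95% counting interval 78.3 to 468). Epas1 was 0.67 ± 0.25 higher with overlapping libraries (adjusted p 0.0377), and that call was lost in 14 of 18 alternatives, with values of 0.49 to 0.83. It was lost on leaving out any library other than healthy blood 1, with an adjusted p of 0.0542 to 0.171.

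LLC blood was compared with healthy blood to see whether circulating monocytes of tumor-bearing mice already differ. None of the 10 genes was called in edgeR (23.6% of tested genes were called, 14.0% higher and 9.61% lower), and their median log2 fold change was -0.08, against -0.01 over all tested genes. At an unadjusted p under 0.05, 2 genes were higher and none lower, and DESeq2 gave the same counts and called none. Hif1a was 0.32 ± 0.14 higher (adjusted p 0.131) and Ndrg1 0.34 ± 0.15 higher (adjusted p 0.130). The libraries of the groups did not overlap for Hif1a, Epas1 and Ndrg1, higher in LLC blood, and for Egln1 and Bnip3, lower, while 27.6% of all tested genes were apart upward and 23.8% downward. The other log2 differences were 0.44 ± 0.25 for Epas1, -0.19 ± 0.17 for Egln1, -0.20 ± 0.22 for Bnip3, -0.25 ± 0.16 for P4ha1, 0.11 ± 0.32 for Egln3 and 0.03 ± 0.28 for Ankrd37, with adjusted p-values of 0.230 to 0.963. Vegfa was -0.34 ± 0.67 (adjusted p 0.755), but -1.60 (adjusted p 0.0428) without LLC blood 1, its highest blood library. Without LLC tumor 1, which is in neither group but shares the fit, its scaling and its filter, 2 of the 10 genes were called higher (Hif1a and Ndrg1) and 2 lower (Egln1 and P4ha1). Limma-voom with sample weights called Hif1a, Epas1 and Ndrg1 higher and Vegfa and P4ha1 lower. Adm reads were too few for a direction (5 in LLC blood and 6 in healthy blood, ratio 0.851, 95% counting interval 0.205 to 3.35).

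**Figure D3:**
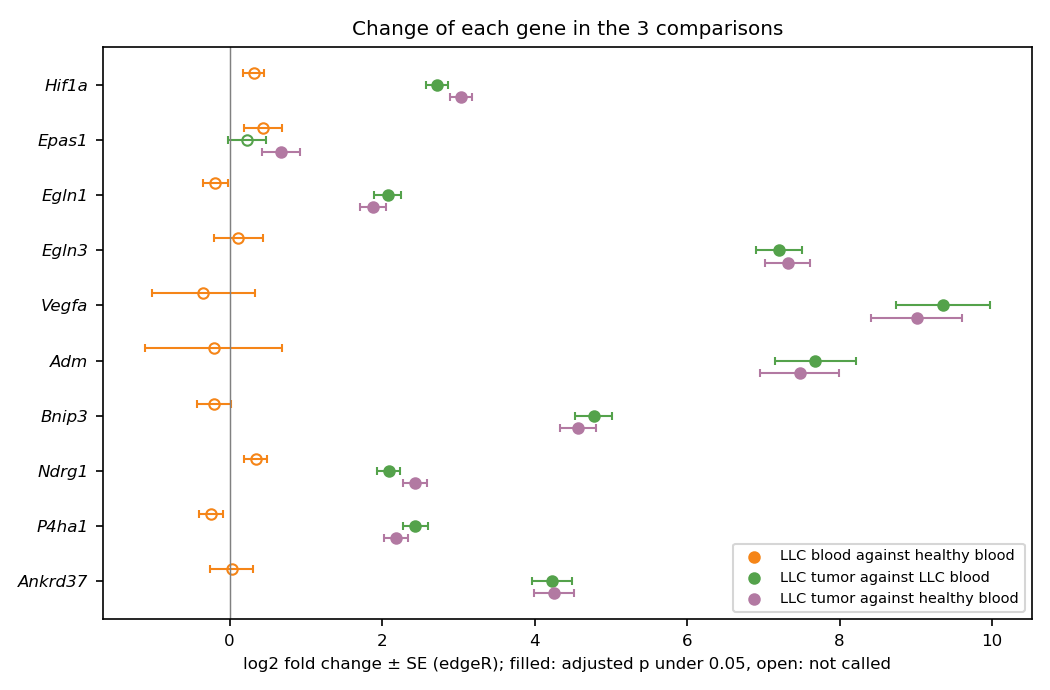
Log2 fold change ± SE of each gene in the 3 comparisons from the edgeR fit; filled points were called at an adjusted p under 0.05 and open points were not. The blood comparison lies near 0 with all points open, and the tumor comparisons lie to the right for every gene except Epas1, whose change from LLC blood was 0.23 ± 0.25.

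The 3 tumor libraries were not alike in these genes. Tumor 1 was the highest of the 3 for 8 of the 10 genes and the lowest for Epas1 and Adm, both on the CPM scale and after the normalization factors that the test uses. Over all tested genes tumor 1 was the highest for 20.9% on the CPM scale and 44.8% after the factors, its factor being 0.798 where the other 8 were 0.968 to 1.07. It was the lowest for 67.0% of them on the CPM scale and 41.5% after the factors. Against the mean of tumor 2 and 3, in CPM, Bnip3 was 1.42 times as high in tumor 1, Vegfa 1.31 times, Egln1 1.27 times and Hif1a 1.07 times. Adm went the other way and was 1.36 times as high in tumor 2 and 3. The sizes depend on the scaling. After the factors Adm was 1.10 times and Epas1 1.03 times as high in tumor 2 and 3, and Hif1a was 1.32 times and Bnip3 1.75 times as high in tumor 1. Markers of fibroblasts differed much more: in CPM, Col1a1 was 8.82 times and Col3a1 4.14 times as high in tumor 2 and 3 as in tumor 1. The 6 fibroblast markers summed to 936, 3467 and 3921 CPM in tumor 1 to 3, to 3.13 to 15.5 CPM in healthy blood and to 1.38 to 409 CPM in LLC blood. Col1a1, Col1a2, Dcn, Lum and Pdgfra passed the filter only through the tumor libraries. Col3a1, which was above the filter in blood too, averaged 6.68 CPM in healthy blood and 2204 CPM in LLC tumor.

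Other cell markers moved with the tumor as well. Carcinoma cell markers summed to 63.4 to 102 CPM in LLC tumor and 3.94 to 9.79 CPM in the blood groups (3 of 4 tested markers higher than in LLC blood, 1 lower). Of these, Krt8 and Krt18 passed the filter only through the tumor libraries. Epcam was at 0 in LLC blood and Krt19 at 0 in healthy blood, but LLC tumor 1 to 3 also had only 0, 0 and 2 counts of Epcam and 0, 0 and 3 of Krt19. Cdh1 was the largest part of the tumor sum, 50.1 CPM on average. Endothelial markers summed to 55.7 to 72.1 CPM against 16.6 to 23.7 CPM (3 of 4 tested higher, 1 lower), with Emcn and Cldn5 at 0 in both blood groups and Tek at 0 in healthy blood. These 3 were low in LLC tumor 1 to 3 too: Emcn had 1, 1 and 2 counts, Cldn5 0, 5 and 3 and Tek 2, 5 and 10. Cdh5, 1 of the 4 tested, passed the filter only through the tumor libraries. Pecam1 was the largest part of the tumor sum, 46.8 CPM on average. Macrophage markers summed to 1429 to 2225 CPM in LLC tumor, 657 to 686 CPM in LLC blood and 1257 to 1466 CPM in healthy blood. In LLC tumor 6 of 7 were higher and 1 lower than in LLC blood, and 5 were higher and 1 lower than in healthy blood. Of the same 7 LLC blood had 5 below the healthy level. Apoe averaged 1026 CPM in healthy blood and 716 CPM in LLC tumor, but Mrc1 21.9 and 391 CPM. Dissociation stress genes summed to 11419 to 13656 CPM in LLC tumor, 1129 to 3897 CPM in LLC blood and 3963 to 6252 CPM in healthy blood. Of the 12, 11 were higher in LLC tumor than in LLC blood, and 8 higher than in healthy blood. Between the blood groups 1 of the 12 was called higher in LLC blood and 2 lower. NK cell and erythroid markers were lower in the tumor: NK cell markers summed to 1.99 to 4.52 CPM in LLC tumor, 24.5 to 44.6 CPM in LLC blood and 171 to 425 CPM in healthy blood, and erythroid markers to 1.08 to 3.46 CPM in the tumor and 168 to 919 CPM in blood. T cell markers summed to 32.2 to 144 CPM in healthy blood, 3.39 to 5.16 CPM in LLC blood and 6.74 to 11.6 CPM in tumors, and B cell markers to 17.2 to 174 CPM, 10.4 to 13.8 CPM and 1.72 to 1.95 CPM. Of 6 tested T cell markers 1 was higher and 1 lower in LLC tumor than in LLC blood. Cd28 averaged 0.484 CPM in LLC blood and 7.58 CPM in LLC tumor, but Lck 1.91 and 0.352 CPM and Cd8a 0.902 and 0.234 CPM. Neutrophil markers summed to 674 to 1248 CPM in blood and 306 to 534 CPM in tumors. Of 9 tested, 0 were higher and 4 lower in LLC tumor than in LLC blood. Against healthy blood LLC tumor had 0 higher and 1 lower, and LLC blood 2 higher and 0 lower. Csf3r averaged 527 CPM (healthy blood), 492 CPM (LLC blood) and 145 CPM (LLC tumor), but S100a8 22.9, 145 and 69.9 CPM. Dendritic cell markers summed to 56.5 to 143 CPM in blood and 123 to 229 CPM in tumors. Platelet markers summed to 3.35 to 19.6 CPM in blood and 138 to 222 CPM in tumors. Of 5 tested dendritic cell markers 2 were higher and 2 lower in LLC tumor than in LLC blood. Itgax averaged 40.1 CPM in LLC blood and 176 CPM in LLC tumor, but Flt3 22.4 and 2.83 CPM. Of 3 tested platelet markers 2 were higher and 0 lower. Ppbp and Pf4 averaged 89.4 and 100 CPM in LLC tumor, but Itga2b, Gp9 and Gp1bb 1.21, 0.0864 and 0.352 CPM. The part of these cells and of tissue handling in the levels of the 10 genes was not tested. Tumor 1, the highest for 8 of the 10 genes and the lowest for Epas1 and Adm, had the lowest fibroblast sum. It also had the highest dissociation stress sum (13656 CPM against 11997 and 11419 CPM in tumor 2 and 3) and the highest macrophage sum (2225 CPM against 2111 and 1429 CPM). The members of these 2 lists were split. Apoe and Adgre1 were highest in tumor 1, but C1qa, C1qb, C1qc, Mertk and Mrc1 were highest in tumor 2. Among the stress genes Hspa1a, Hspa1b, Atf3, Dusp1 and Zfp36 were highest in tumor 1, and Fos, Jun, Egr1, Ier2 and Ier3 were lowest there.

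**Figure D4:**
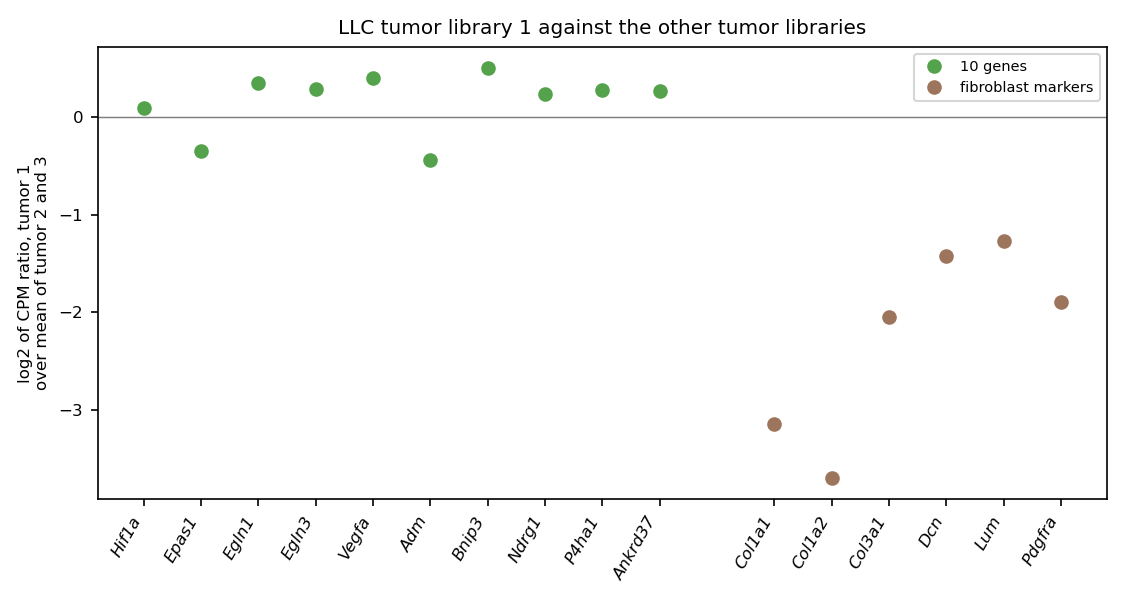
Log2 of the ratio of CPM in LLC tumor 1 to the mean of LLC tumor 2 and 3 for the 10 genes (green) and the 6 fibroblast markers (brown). In the plot 8 of the green points lie above 0, with Epas1 and Adm below, and all brown points lie below -1.

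Of 14 genes that act with or on HIF itself, 11 were tested, and 4 rose and 4 fell in LLC tumor against LLC blood, shares near the 29.6% and 31.7% of all tested genes, with a median log2 fold change of 0.21 against -0.03 for all tested genes. Cited2, a HIF-induced competitor for the coactivator p300, rose from 66.6 ± 12.4 to 142 ± 49.8 CPM (log2 fold change 1.34 ± 0.29, adjusted p 0.00301), and Eloc, a subunit of the VHL ligase, rose 0.69 ± 0.12 (adjusted p 0.000914). Ep300, the coactivator p300, fell from 302 ± 35.4 to 166 ± 19.5 CPM (-0.67 ± 0.10, adjusted p 0.000404). In LLC blood the same gene had risen from 173 CPM in healthy blood (0.77 ± 0.10, adjusted p 0.00113), together with the related coactivator Crebbp (0.60 ± 0.12, adjusted p 0.00657). Arnt, the constant partner, was 0.31 ± 0.07 higher in LLC blood than in healthy blood (adjusted p 0.00936) and 0.38 ± 0.07 higher again in LLC tumor (adjusted p 0.000863), with overlapping libraries in the second step; it was named after its values were seen. In blood 3 of the 11 rose and 2 fell (14.0% and 9.61% of all tested genes did), the latter being Eloc and Rbx1, both parts of the VHL ligase and named after their values were seen. The count of 2 fell to 0 or 1 on leaving out any blood library or LLC tumor 3, and rose to 5 without LLC tumor 1. In the tumor comparison the count that fell was 2 in place of 4 without LLC blood 3 or LLC tumor 2, and the balance followed the scaling, with 2 higher and 4 lower by library totals and 5 higher and 2 lower by DESeq2 size factors.

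The wider set of targets rose in the tumor alongside the 10 genes. Of 32 other non-glycolytic targets 27 were tested, and 22 rose and 1 fell, with a median log2 fold change of 2.21. Of all tested genes 29.6% rose and 31.7% fell in the same comparison, LLC tumor against LLC blood. Leaving aside 6 that passed the filter through the tumor libraries alone, 17 of 21 rose and the median was 1.56. Plod2, a collagen lysyl hydroxylase, and Ak4, a mitochondrial adenylate kinase, are among those 6. Plod2 had 1 to 3 counts in an LLC blood library and 361 to 1439 in a tumor library. In CPM it was 3.84 times as high in tumor 2 and 3 as in tumor 1, the library in which 67.0% of all tested genes were lowest. Ak4 had 4, 0 and 0 counts in LLC blood and 495 to 548 in a tumor library. Hilpda, which slows lipid droplet breakdown, rose from 2.56 ± 1.10 to 367 ± 79.2 CPM (7.47 ± 0.33, adjusted p 2.99e-07), and Bhlhe40, a transcriptional repressor, from 41.0 ± 6.64 to 756 ± 159.8 CPM (4.44 ± 0.24, adjusted p 7.23e-07). The gene that fell was Kdm4c, a histone demethylase (-0.29 ± 0.11, adjusted p 0.0440, named after its value was seen); no gene of the list was called lower when any library other than LLC blood 1 and LLC tumor 1 was left out. In blood 2 of the 27 rose and 4 fell, against 14.0% and 9.61% of all tested genes. Ddit4, an mTOR inhibitor, fell from 52.4 ± 18.3 to 25.7 ± 6.44 CPM (-1.06 ± 0.25, adjusted p 0.0155), and Wsb1, a ubiquitin ligase adaptor, fell by 0.49 on the log2 scale (SE 0.10, adjusted p 0.00781). The blood counts rested in part on single libraries: the 2 that rose were 0 (without LLC blood 2 or 3) or 1 (without healthy blood 1, 2 or 3), and the 4 that fell were 2 without LLC blood 2 and 8 without LLC tumor 1.

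Of 19 glycolytic targets, all tested, 18 rose in LLC tumor against LLC blood and 1 fell, with a median log2 fold change of 2.10. Of all tested genes 29.6% rose and 31.7% fell. The glucose transporter Slc2a1 rose from 50.9 ± 2.55 to 1243 ± 183 CPM (4.83 ± 0.20, adjusted p 2.08e-07), and Tpi1, Pfkfb3 and Pfkl, enzymes and a regulator of glycolysis, rose by 3.15 ± 0.22, 2.94 ± 0.17 and 2.65 ± 0.13. Pfkfb4, named after its value was seen, was the one that fell (-0.77 ± 0.14, adjusted p 0.00124). In the tumor libraries 17 of the 19 were highest in tumor 1 in CPM, the library that also led in 8 of the 10 genes. In blood none of the 19 rose and Slc2a3, named after its value was seen, fell (-1.53 ± 0.32, adjusted p 0.00897), where 14.0% of all tested genes were called higher and 9.61% lower. Every LLC blood library lay above every healthy blood library for 13 of the 19 (27.6% of all tested genes) and below for 2 (23.8%). At an unadjusted p 4 were higher and 1 lower, and DESeq2 called 2 higher and limma-voom 8. Without LLC tumor 1, 7 of the 19 were called higher and 2 lower, and without LLC tumor 2, 2 were called higher.

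**Figure D5:**
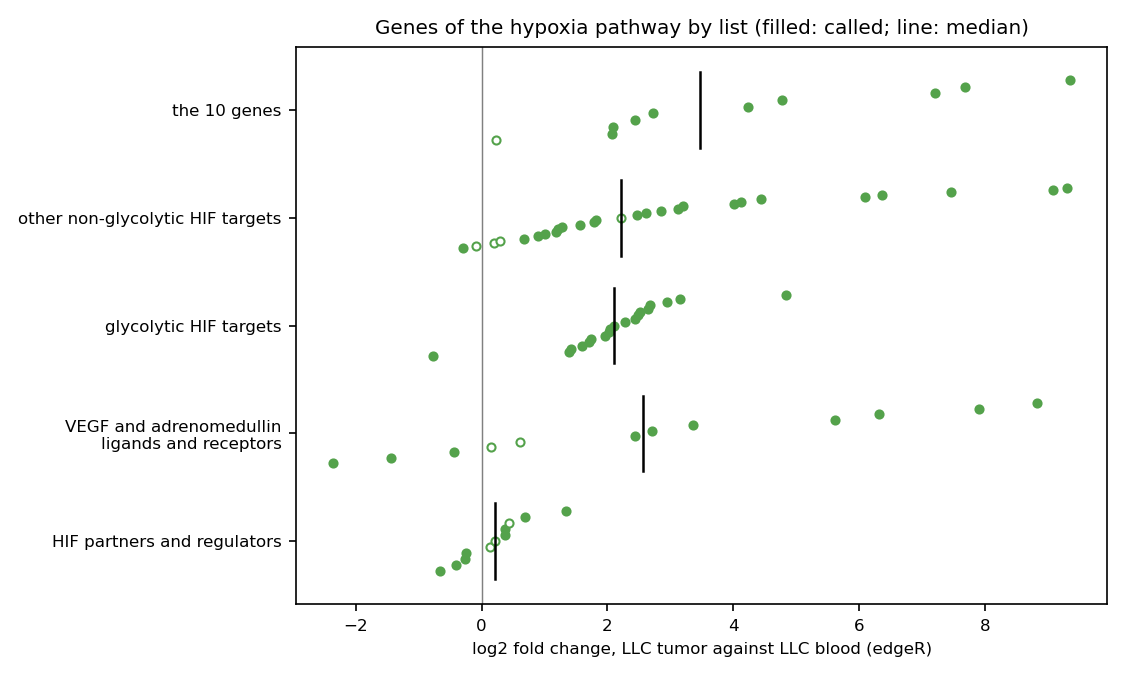
Log2 fold change from LLC blood to LLC tumor (edgeR) of the tested genes of 5 lists; filled points were called and open points not, and the vertical line is the list's median. The 10 genes and both target lists lie mostly to the right (medians 3.47, 2.21 and 2.10), while the partners and regulators lie on both sides of 0 (median 0.21).

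Of 13 ligands and receptors of the VEGF and adrenomedullin systems, 12 were tested, and 7 rose and 3 fell in LLC tumor against LLC blood, with a median log2 fold change of 2.57, but for the 8 that did not pass through the tumor libraries alone 3 rose and 3 fell, near the shares of all tested genes (29.6% and 31.7%), and the median was 0.38. Nrp2, a VEGF co-receptor, rose from 19.3 ± 2.92 to 114 ± 58.4 CPM (2.71 ± 0.29, adjusted p 4.30e-05), whereas the co-receptor Nrp1 fell from 177 ± 17.6 to 57.8 ± 15.4 CPM (-1.44 ± 0.13, adjusted p 1.26e-05). In CPM Nrp2 was 2.70 times as high in tumor 2 and 3 as in tumor 1, the library in which 67.0% of all tested genes were lowest. Among the partners of the adrenomedullin receptor, Ramp1 fell from 69.3 ± 3.29 to 11.7 ± 1.21 CPM (-2.36 ± 0.11, adjusted p 3.17e-07), and the receptor Calcrl, named after its value was seen, fell by 0.45 on the log2 scale (adjusted p 0.0253). Ramp3 and Pgf, another VEGF family ligand, were also named after their values were seen, and both passed the filter only through the tumor libraries. Ramp3 had 1 to 3 counts in an LLC blood library and 253 to 401 in a tumor library, and Pgf 6 to 10 and 410.0 to 462. Ramp1 directs Calcrl to the peptide CGRP, and Ramp2 and Ramp3 direct it to adrenomedullin. In blood the one called gene was Flt1, the receptor for Vegfa and Pgf, which fell from 29.7 ± 0.169 to 7.40 ± 2.63 CPM (-2.04 ± 0.32, adjusted p 0.00251, named after its value was seen). Without LLC tumor 1 the blood comparison called 1 of the 12 higher and 2 lower.

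The genes most like 3 of the members over the 9 libraries were sought by Pearson's r of log2(CPM + 1), among genes averaging 20 CPM or more. The 3 tumor libraries lie far from the 6 blood libraries in most of these genes, so r is a description of that step and carries no p. Closest to Hif1a among 6903 genes were Slc7a11, the cystine transporter subunit, Chd7, a chromatin remodeler, and Pgam1, a glycolytic enzyme (r 0.998, 0.998 and 0.997). Closest to Vegfa were Ptgs2, the inducible cyclooxygenase (r 1.00), Osm, an IL-6 family cytokine (0.998) and the chemokine Ccl2 (0.997). Ptgs2 stood at 2.48 CPM in healthy and in LLC blood and at 1746 CPM in LLC tumor. Epas1 had looser matches in Coro1c, Eif2ak4 and Myo9a (r 0.949, 0.941 and 0.934 among 6904 genes), which were higher in LLC blood than in healthy blood on average and little higher again in tumor.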

How the data were processed

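RNA was extracted with TRIzol and made into TruSeq libraries sequenced on a HiScanSQ, per the labels. The authors deposited estimated counts (expected counts, not normalized) by gene symbol, and a CPM table of 10693 of the genes, whose CPM values were all whole multiples of 1 read (tolerance 0.02 reads); the submitters' processing notes name STAR 2.6.1d, Salmon 1.9.0, edgeR and build mm10, with no role or order. Between 8.56% and 9.73% of the count values were not whole, among them Vegfa in all tumor libraries. Blood columns are headed BM, taken to stand for blood monocyte, the wording of the sample descriptions. The other 22 of the 31 samples (ATAC-seq, CUT&Run and CUT&Tag) were not analysed here.

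Counts were rounded and tested with edgeR 4.0.16 (R 4.3.3): quasi-likelihood fit of all 9 libraries with group as the only term, TMM factors, filterByExpr (12337 of 18544 genes with a count), Benjamini-Hochberg adjustment over all tested genes. SE is the absolute log2 fold change over the square root of F. Levels are CPM over all entries; 3 counts are 0.145 to 0.287 CPM, a limit for counting error only. Alternatives used DESeq2 1.42.0 and limma 3.58.1. The code was tested on simulated data. Positions and promoters are RefSeq's (GRCm38.p6). The annotation overlaps Hif1a with Gm15283, Egln1 with Gm46060, Adm over its whole span with Gm28863, Bnip3 with the pseudogene Gm18258 and Ankrd37 with Ufsp2 over 51 bases; strand-specific counting is not given in the sources used here, so reads of such pairs cannot be told apart.

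The 10 genes, the lists and the tests were chosen with earlier results of these data known. From each pathway list the text names the 4 genes with the largest absolute change in LLC tumor against LLC blood, and the 2 in LLC blood against healthy blood, among called genes averaging 20 CPM or more in the compared libraries; the closest relatives of the 10 genes and the 3 genes most like Hif1a, Epas1 and Vegfa are also named, and others are marked. Markers of other cells were lists fixed for carcinoma cells, fibroblasts, endothelial cells, macrophages, dendritic cells, neutrophils, lymphocytes (T, B and NK), platelets and erythroid cells; 1 further marker of the sorted monocytes is not reported here. No batch is given in the labels; a batch and the group cannot be told apart.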

Additional observations from a re-analysis of the deposited data

How the results depend on the processing

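The 9 genes that rose from LLC blood to LLC tumor numbered 9 in all 20 alternatives (normalization, filter, tool, libraries in the fit, threshold, 9 single libraries left out, and the reads behind the CPM table), and the 10 against healthy blood numbered 9 or 10. The blood comparison moved most. Its 2917 called genes became 5884 with limma-voom, 4889 with only the 6 libraries compared, 1386 at an adjusted p under 0.01, 769 when a log2 change of 1 or more was also required, and between 1494 and 5064 with a library left out (the extremes being LLC blood 2 and LLC tumor 1). Of the 10 genes, none was called higher there, but 2 were with library totals only, 3 with limma-voom, 2 with 6 libraries and 0 to 2 with a library left out; none was called lower, but 2 were with limma-voom, 1 with 6 libraries and 0 to 2 with a library left out. With a fold threshold the tumor counts fell from 7566 to 3538 (against LLC blood) and from 8208 to 3989 (against healthy blood). The difference in the Epas1 share between the blood groups was 0.0963 percentage points (-0.148 without healthy blood 2 to 0.363 without healthy blood 1), and that of the Vegfa share -10.6 (-26.6 without LLC blood 1 to 1.84 without LLC blood 2); the cause was not tested. Scaling by library totals moved the median of all genes to -0.23 (LLC tumor against LLC blood) and -0.17 (against healthy blood) and the share of calls that were higher from 48.3% to 36.3% and, in blood, upper-quartile factors from 59.4% to 46.3%. Replicate numbers are shared by the groups, but the labels state no pairing, so same-numbered libraries were not read as pairs. Such libraries deviated together only weakly (r -0.102 to 0.298), which with 3 libraries per group cannot show whether mice were shared. A replicate block gave 2788, 7455 and 8092 called genes and, among the 10, changed only Epas1 against healthy blood (0.68, adjusted p 0.0598). Counts limit Epas1 (23 to 52 per library) and Adm in blood (0 to 4).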

Other observations

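Car9, a cell surface carbonic anhydrase often used as a hypoxia reporter, was at 3.54 ± 0.569 CPM in LLC blood and 3.80 ± 0.483 CPM in LLC tumor (log2 fold change 0.30 ± 0.24, edgeR adjusted p 0.296). Lox, a collagen cross-linking enzyme, had 56, 0 and 0 counts in LLC blood 1 to 3 and 8, 113 and 119 in LLC tumor 1 to 3. It was not called, and it is among the 6 targets that passed the filter through the tumor libraries alone. All its LLC blood counts were in LLC blood 1, the library with fibroblast markers. Its tumor CPM was lowest in tumor 1, as it was for those markers and for 67.0% of all tested genes. The source of its reads was not tested. Edn1, the vasoconstrictor endothelin, reached 0.682 CPM in LLC tumor and was too low to be tested. Ero1a, which oxidises proteins in the endoplasmic reticulum, rose from 64.7 to 966 CPM (4.13 ± 0.21, adjusted p 5.23e-07), and Mxi1, a repressor of MYC activity, from 67.7 to 424 CPM (2.86 ± 0.13, adjusted p 2.74e-07). Pdgfb, a growth factor for pericytes, fell in LLC blood from 21.6 to 6.21 CPM (-1.85 ± 0.34, adjusted p 0.00493) and was higher in LLC tumor than in LLC blood (1.21 ± 0.35, adjusted p 0.0132), with overlapping libraries. These 6 genes were picked after their values were seen.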
